A study of Mus musculus with 12 samples.

Results

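The vascular endothelial growth factor (VEGF) family was followed in the mouse retina after laser injury. Members were taken by gene symbol from a fixed list of 4 ligands (Vegfa, Vegfb, Vegfc and Pgf), 3 receptor tyrosine kinases (Flt1, Kdr and Flt4) and 2 neuropilin co-receptors (Nrp1 and Nrp2). All 9 were found in the deposited tables, among 54367 genes.

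The samples were whole retinas of wildtype C57BL/6 mice aged 8 to 12 weeks. The right eye of each mouse was burned with a 532 nm laser (75 µm spots, 0.1 s) at 4 clock positions, and the left eye was left without laser as the control. Retinas were taken 3 or 7 days later and poly(A) RNA was sequenced, with 3 libraries in each of the 4 groups (lasered and control retina on day 3, lasered and control retina on day 7) and 12 in all. The control is thus the fellow eye of a lasered animal, not the eye of an untouched animal. Libraries are named here by group and by the number in their titles, for example lasered retina 1 of day 3. The labels do not say that equal numbers mark the same mouse, and the spread behind each p-value is only that among these samples.

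VEGF-A, made in the retina mainly by glia and neurons and raised by low oxygen through hypoxia-inducible factors, binds the kinase receptors FLT1 (VEGF receptor 1) and KDR (VEGF receptor 2). KDR carries most of the growth and permeability signal in blood endothelium, whereas FLT1 binds VEGF-A tightly, signals weakly and also exists as a secreted decoy. VEGF-B and placental growth factor, the product of Pgf, bind FLT1 and not KDR, VEGF-C acts mostly through FLT4 (VEGF receptor 3) on lymphatic and sprouting endothelium, and the neuropilins hold ligand and receptor together and also receive semaphorins in neurons. Laser burns that reach beneath the retina are a common way to bring about vessel growth in the mouse eye.

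The deposited value of a gene is a signal per exon length, scaled to about the same total in every library, and the table of day 3 and that of day 7 were normalized separately. Lasered retinas were therefore compared with controls of the same day. The recovered reads assigned to genes numbered 9282007 to 12515836 in the day 3 libraries and 23886219 to 31092890 in those of day 7. As the retina label calls for, all 13 rod and cone markers looked at had a mean signal of at least 1 on both days, and their mean log2(signal + 1) was 9.59 to 9.64 in day 3 controls and 10.16 to 10.18 in day 7 controls. Lasered retina 1 of day 3 stood apart. Its 14 microglia, monocyte and macrophage markers summed to 1026, against 184 and 239.5 in the other lasered retinas and 37.8 to 44.6 in the controls. The sum of its 6 neutrophil markers was 1112 (2.98 and 59.8 in the other lasered retinas, at most 3.88 in controls), and the mean log2(signal + 1) of its 13 rod and cone markers was 7.85, below the 9.25 to 9.64 of the other libraries of that day. Lens and corneal markers summed to 357 in lasered retina 2 of day 3 and to 1065 in lasered retina 1 of day 7, and to at most 7.0 in the other libraries. The high sums came almost wholly from lens genes. In lasered retinas the lens genes Cryaa and Crybb2 had means of 52.7 and 53.1 on day 3 and 182 and 92.4 on day 7. The corneal keratins Krt12, Krt5 and Krt14 had 0.28, 0.27 and 0.68 on day 3 and 0.46, 0.17 and 0 on day 7. The tested members are given with and without lasered retina 1 of the day, and some of day 3 also without lasered retina 2. As these are bulk samples, more cells of a type and more RNA per cell cannot be told apart.

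For Vegfa, Pgf and Kdr the 250 bases just upstream of a RefSeq start are shown, because these are the ligand best known for induction by low oxygen and the 2 members whose values differed most between lasered and control retinas. All 9 members had an entry in the promoter table. The sequences are from RefSeq on GRCm38.p6, read 5′ to 3′ on the strand of the gene. Vegfa and Pgf have 2 starts each in that table. Taken was the one whose window had its upstream edge nearest the 5′ end of the gene in the deposited tables. This need not be the start nearest that end, and the other start of each gene is not shown. For Pgf this window still lies inside the gene span of the deposited tables, ending 227 bases short of its 5′ end. The letters of the core of the hypoxia response element, ACGTG or GCGTG, searched on both strands and not overlapping each other here, are in capitals. Vegfa lies at chr17:46032378-46032627, Pgf at chr12:85177314-85177563 and Kdr at chr5:75978456-75978705, all 3 on the minus strand.
Vegfa: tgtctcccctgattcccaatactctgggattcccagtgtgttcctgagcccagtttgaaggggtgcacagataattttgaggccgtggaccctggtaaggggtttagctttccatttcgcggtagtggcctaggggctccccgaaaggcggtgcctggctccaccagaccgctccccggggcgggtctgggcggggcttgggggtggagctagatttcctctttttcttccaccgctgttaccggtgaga
Pgf: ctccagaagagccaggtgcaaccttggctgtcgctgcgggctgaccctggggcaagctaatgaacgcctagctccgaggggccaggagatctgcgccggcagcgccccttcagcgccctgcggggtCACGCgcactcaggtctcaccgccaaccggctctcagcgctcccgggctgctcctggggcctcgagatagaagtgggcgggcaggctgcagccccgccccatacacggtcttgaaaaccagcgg
Kdr: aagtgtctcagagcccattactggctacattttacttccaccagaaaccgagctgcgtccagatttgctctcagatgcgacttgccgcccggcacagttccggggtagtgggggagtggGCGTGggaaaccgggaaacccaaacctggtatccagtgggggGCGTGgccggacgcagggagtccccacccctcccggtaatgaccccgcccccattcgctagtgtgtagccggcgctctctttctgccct

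The core was found 0 times upstream of Vegfa, 1 time upstream of Pgf (first base at -124 from the start, as CACGC, which is GCGTG on the other strand) and 2 times upstream of Kdr (at -131 and -89). Of 32851 upstream windows of the same length in the table, 38.6% hold at least 1 such core. A GC box, GGGCGG on either strand, occurred 2 times in each of the 3 windows (at -72 and -62 for Vegfa, -50 and -31 for Pgf, -166 and -45 for Kdr), and 32.7% of all windows hold one. Neither the STAT letters TTCNNNGAA, nor the AP-1 letters TGANTCA, nor TATAAA occurred in any of the 3 windows, against 7.0%, 6.7% and 12.4% of all windows. These matches are letters in a window of 250 bases and say nothing of binding. Sequence farther upstream was not searched, so the 0 of Vegfa does not mean that its wider promoter lacks the core.

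On day 3 the lasered retinas had more Pgf, Kdr, Nrp1 and Flt1 signal than every control (27.7% of tested genes were higher without overlap), and more of the untested Nrp2. Pgf and Kdr had the largest fold differences, and Vegfb and Vegfa lay higher with overlap. On day 7 Pgf and Kdr were again above the control of equal number in 3 of 3 numbers (as were 21.4% of tested genes), as were Vegfc and the scarce Nrp1 by smaller amounts, Vegfa was below it in 3 of 3 (8.51%), and Vegfb, Flt1, Flt4 and Nrp2 went both ways by number. No member passed the adjusted threshold in the fit without blocks on either day: 0 of 6 tested members on day 3, where 0.149% of 16786 tested genes passed, and 0 of 8 on day 7, where 0.244% of 15592 passed. An unadjusted p under 0.05 was reached by 4 of 6 members on day 3 (23% of all tested genes) and by 2 of 8 on day 7 (3.94%), and voom on the recovered reads also called 0 members on either day. Kdr passed on day 7 once equal numbers were paired. Tests used limma on log2(signal + 1), 2-sided, with Benjamini-Hochberg adjustment over all genes with a mean signal of at least 1 that day and a threshold of 0.05. On this scale changes of low genes are understated. The mean of at least 1 was taken over both groups, so a gene scarce in controls could enter through its lasered values. On day 3 Vegfc, Flt4 and Nrp2 did not reach that mean, on day 7 Nrp1 did not, and these received no test.

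**Figure D1:**
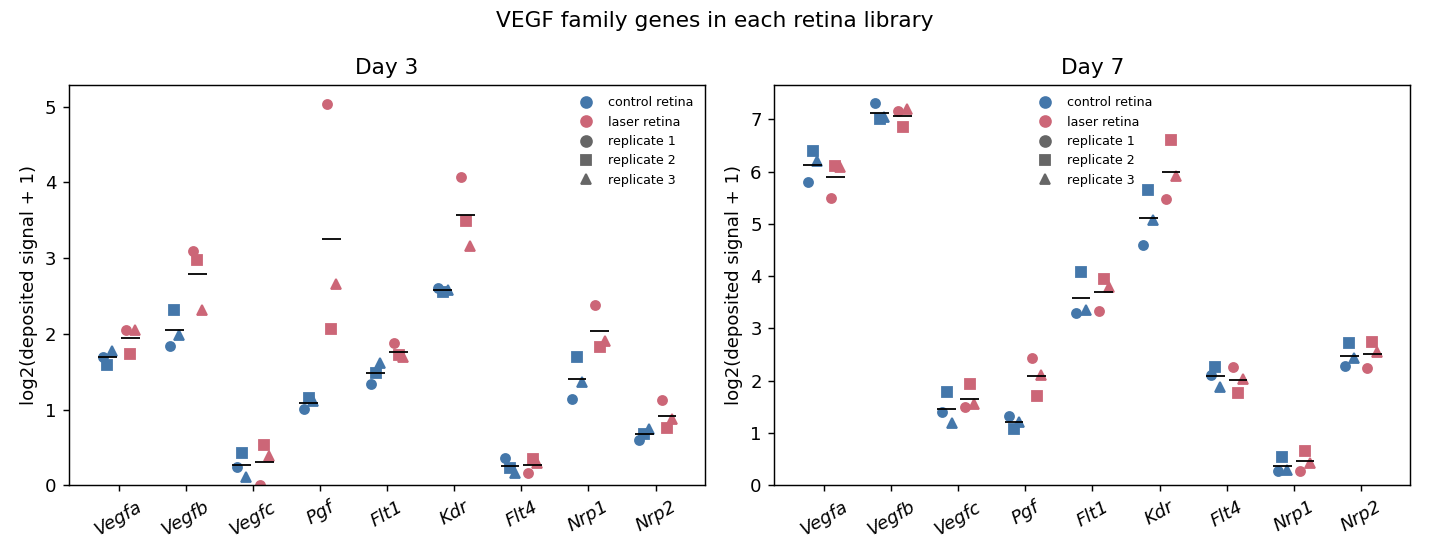
Signal of the 9 VEGF family genes in each of the 12 retina libraries, day 3 on the left and day 7 on the right. The y axis is log2(deposited signal + 1), each point is 1 library with its shape giving the replicate number, blue is control and red is lasered retina, and the black bar is the mean of the 3 points. The 3 lasered retinas of day 3 lie above all 3 controls for Pgf, Kdr, Flt1, Nrp1 and Nrp2, and Pgf of lasered retina 1 lies far above the other lasered retinas.

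Vegfa (ENSMUSG00000023951; mm10 chromosome 17, 46016993 to 46032369, minus strand) encodes the main angiogenic ligand. Its day 3 signal was 2.25, 2.01 and 2.43 in control retinas 1, 2 and 3 and 3.14, 2.31 and 3.14 in lasered retinas 1, 2 and 3. These values rest on 55 to 70 reads per library, and the groups overlapped through lasered retina 2. A log2 fold change of 0.25 was fitted (SE 0.17, adjusted p = 0.410 by limma), with the lasered retina higher in 3 of 3 numbers. It was 0.20 (adjusted p = 0.644) without lasered retina 1 and 0.36 (adjusted p = 0.326) without lasered retina 2. On day 7 Vegfa stood at 54.8, 83.1 and 72.5 in the controls and at 43.9, 67.8 and 66.6 in the lasered retinas, on 1849 to 3489 reads. Each lasered retina was below the control of its number, with ratios of 0.801, 0.816 and 0.918, although the groups overlapped. Of all genes tested on day 7, 8.51% were lower in 3 of 3 numbers. The log2 fold change was -0.24 (SE 0.23, adjusted p = 0.9998), and with the replicate number as a block its unadjusted p was 0.0674 (adjusted p = 0.688 by limma). Without lasered retina 1, the library with the high lens markers, it was -0.04 (adjusted p = 0.967).

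Vegfb (ENSMUSG00000024962; chromosome 19, 6982473 to 6987651, minus strand) encodes a ligand of FLT1 tied to lipid uptake and cell survival more than to sprouting. On day 3 it stood at 2.57, 3.98 and 2.95 in controls and at 7.51, 6.83 and 3.95 after laser, from 25 to 73 reads. Lasered retinas 1 and 2 were above all controls and lasered retina 3 lay just under control 2. In the fit the log2 fold change was 0.74 (SE 0.25, adjusted p = 0.146 by limma). It was 0.59 (adjusted p = 0.283) without lasered retina 1 and 0.65 (adjusted p = 0.249) without lasered retina 2. On day 7 Vegfb was the most abundant member per exon length, at 157, 127 and 131 in controls and 142, 114 and 145 in lasered retinas. The groups overlapped throughout and the log2 fold change was -0.05 (SE 0.15, adjusted p = 0.9998), and -0.10 (adjusted p = 0.912) without lasered retina 1. Its direction on day 7 turned under 6 of 25 alternative settings, among them the removal of GC trends (0.14).

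Vegfc (ENSMUSG00000031520; chromosome 8, 54077606 to 54187096, plus strand), the ligand of FLT4, was near the limit of detection on day 3. The libraries held 3, 6 and 1 reads in controls and 0, 7 and 4 in lasered retinas, and a count of 3 reads corresponds to a signal of 0.175 to 0.242. On day 7 it reached 1.64, 2.43 and 1.29 in controls and 1.81, 2.81 and 1.94 in lasered retinas, on 26 to 57 reads. The groups overlapped, each lasered retina was above the control of its number (as for 21.4% of all genes tested), and the log2 fold change was 0.20 (SE 0.27, adjusted p = 0.9998 by limma), and 0.28 (adjusted p = 0.904) without lasered retina 1.

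Pgf (ENSMUSG00000004791; chromosome 12, 85166635 to 85177790, minus strand), the FLT1 ligand known from inflamed and ischemic tissue, had the largest fold difference of the family. On day 3 the controls lay close together at 1.01, 1.23 and 1.16, and the lasered retinas at 31.8, 3.18 and 5.33. Behind these stand 19, 23 and 17 reads in controls and 460, 65 and 84 in lasered retinas. Each lasered retina was above every control, but lasered retina 1 alone held several times the signal of the others. The ratios to the control of equal number were 31.5, 2.58 and 4.57. Its log2 fold change was 2.16 (SE 0.69, unadjusted p = 0.0161, adjusted p = 0.137 by limma). Without lasered retina 1 the log2 fold change was smaller, 1.27, and passed (adjusted p = 0.0490), and without lasered retina 2 it was 2.76 (adjusted p = 0.116). It also passed when the spread was estimated from all 12 libraries together (adjusted p = 0.0470). Many more genes passed in these fits, 315 without lasered retina 1 and 1016 in the joint one, against 25 in the fit first given. Under the other 23 of 25 alternative settings Pgf did not pass, among them library weights (1.52, adjusted p = 0.0983) and the replicate block (2.16, adjusted p = 0.178), also without number 1 (1.23, adjusted p = 0.182).

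On day 7 Pgf stood at 1.51, 1.11 and 1.32 in controls (41, 32 and 30 reads) and at 4.40, 2.26 and 3.30 after laser (115, 57 and 100 reads). The groups did not overlap, and Pgf was the only member of which this held on day 7, where 6.78% of tested genes were higher without overlap. Ratios by number were 2.92, 2.04 and 2.50, narrower than on day 3. The log2 fold change was 0.88 (SE 0.27, unadjusted p = 0.0131), over the threshold once adjusted (adjusted p = 0.777 by limma, 0.266 with the replicate block). Without lasered retina 1 it was 0.70 (adjusted p = 0.904).

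**Figure D2:**
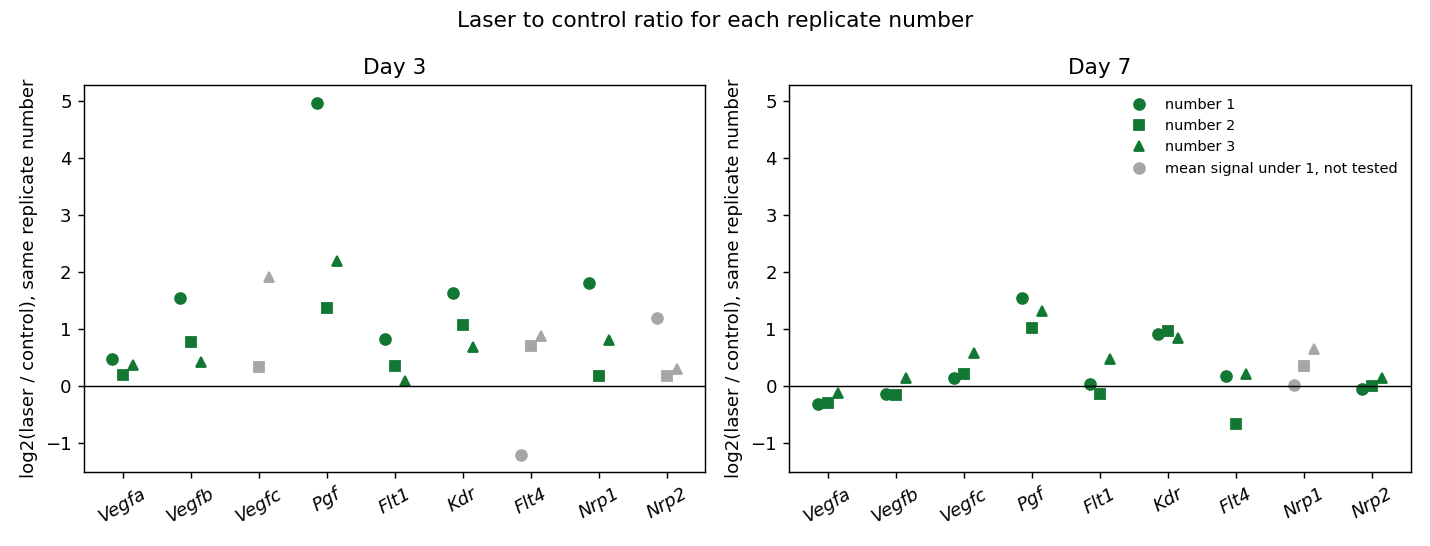
Ratio of the lasered retina to the control retina of the same replicate number for each VEGF family gene, on a log2 axis with day 3 on the left and day 7 on the right. Each point is 1 number, grey points belong to genes with a mean signal under 1 that were not tested, and Vegfc has no point for number 1 of day 3 because the lasered value is 0. The 3 Kdr points of day 7 lie close together (ratios of 1.81 to 1.97) and those of Pgf on day 3 lie far apart (2.58 to 31.5).

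Flt1 (ENSMUSG00000029648; chromosome 5, 147561604 to 147726011, minus strand) is counted here as a whole gene, so the membrane receptor and the secreted decoy were not separated. On day 3 it stood at 1.52, 1.80 and 2.08 in controls and at 2.69, 2.30 and 2.22 after laser. The lasered retinas were all higher, by a margin as small as that between 2.08 and 2.22. Its log2 fold change was 0.29 (SE 0.17, adjusted p = 0.358 by limma), 0.23 (adjusted p = 0.574) without lasered retina 1 and 0.31 (adjusted p = 0.446) without lasered retina 2. On day 7 the controls were at 8.88, 15.9 and 9.20 and the lasered retinas at 9.10, 14.5 and 12.9, with control 2 and lasered retina 2 the highest of their groups. The log2 fold change was 0.11 (SE 0.28, adjusted p = 0.9998), and 0.29 (adjusted p = 0.904) without lasered retina 1.

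Kdr (ENSMUSG00000062960; chromosome 5, 75932827 to 75978458, minus strand) encodes the principal signalling receptor of VEGF-A. The day 3 controls were nearly equal at 5.09, 4.89 and 4.96, and the lasered retinas stood at 15.7, 10.2 and 7.95, on 227 to 738 reads per library. All 3 lasered retinas were above every control, with ratios by number of 3.09, 2.09 and 1.60. The log2 fold change was 0.99 (SE 0.23, unadjusted p = 0.00354), and Kdr did not pass after adjustment (adjusted p = 0.0940 by limma). Without lasered retina 1 it was 0.75 (adjusted p = 0.0916), and over 25 alternative settings it ranged from 0.75 to 1.20, with adjusted p from 0.0567 to 0.428.

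On day 7 Kdr stood at 23.3, 48.8 and 32.8 in controls and at 43.7, 95.9 and 59.4 after laser, on 2032 to 7257 reads. Control 2 was above lasered retina 1, so the groups overlapped, yet number 2 was the highest in both groups and number 1 the lowest. Within a number the ratios were 1.88, 1.97 and 1.81. The fit without blocks gave a log2 fold change of 0.89 (SE 0.35, unadjusted p = 0.0358, adjusted p = 0.9998 by limma), and without lasered retina 1 it was 1.15 (adjusted p = 0.741). On day 7 the deviations of libraries of equal number correlated by 0.485, 0.559 and 0.128. Unlike numbers reached 0.205 (lasered retina 3 with control 1, above its 0.128 with control 3) and 0.118 (lasered retina 1 with control 3). With the number as a block the same fold change had an SE of 0.11 and passed (unadjusted p = 1.56e-04, adjusted p = 0.0465 by limma). In that fit 0.334% of all tested genes rose, and Kdr was the only member among them. The blocked call was close to the threshold: with GC trends removed it held (adjusted p = 0.0345), and it was lost with a pseudocount of 0.1 (0.0562), with the cyclic factor in the deposited values undone (0.0554), after median-of-ratios rescaling (0.0774) or quantile normalization (0.125), without the filter on low genes (0.202), and without number 1, 2 or 3 (0.146, 0.106 and 0.239). The blocked log2 fold change lay between 0.81 and 0.92 in all of these.

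Flt4 (ENSMUSG00000020357; chromosome 11, 49609263 to 49652739, plus strand), receptor of VEGF-C, was scarce on day 3, with 0.281, 0.17 and 0.121 in controls and 0.122, 0.276 and 0.224 in lasered retinas from 5 to 16 reads. A difference was not detectable at this depth. On day 7 it stood at 3.31, 3.80 and 2.68 in controls and at 3.77, 2.41 and 3.10 after laser, with a log2 fold change of -0.07 (SE 0.24, adjusted p = 0.9998 by limma), and of -0.18 (adjusted p = 0.906) without lasered retina 1. Lasered retinas 1 and 3 were above and lasered retina 2 below the control of their number.

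Nrp1 (ENSMUSG00000025810; chromosome 8, 128358604 to 128503363, plus strand) encodes the co-receptor of VEGF-A that also receives class 3 semaphorins. Its exons contain Mir1903 over 80 bases, 0.82% of its exon length, the only exon shared between a member and another gene. On day 3 Nrp1 stood at 1.20, 2.25 and 1.58 in controls and at 4.2, 2.56 and 2.76 after laser. All 3 lasered retinas were above all 3 controls, and number 2 had the smallest ratio (3.49, 1.14 and 1.75 in order of number). The log2 fold change was 0.64 (SE 0.23, adjusted p = 0.165 by limma), and 0.47 (adjusted p = 0.308) without lasered retina 1. On day 7 Nrp1 was scarce, with 0.210, 0.453 and 0.219 in controls and 0.213, 0.579 and 0.345 in lasered retinas from 17 to 45 reads, and was not tested.

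Nrp2 (ENSMUSG00000025969; chromosome 1, 62703285 to 62818695, plus strand), the co-receptor of VEGF-C and of semaphorins, stood on day 3 at 0.516, 0.602 and 0.672 in controls and at 1.19, 0.685 and 0.828 after laser. The groups did not overlap, though lasered retina 2 exceeded control 3 only slightly, and the mean was too low for the test. On day 7 it stood at 3.86, 5.62 and 4.39 in controls and at 3.75, 5.66 and 4.83 after laser, with a log2 fold change of 0.03 (SE 0.24, adjusted p = 0.9998 by limma). This small value turned negative when libraries were rescaled by the median of ratios (-0.04) or by quantiles (-0.07), and without lasered retina 1 it was 0.16 (adjusted p = 0.911).

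The day 3 counts were set beside those of all genes. Of the 6 tested members 4 (Pgf, Flt1, Kdr and Nrp1) were higher in the lasered retinas without overlap, and so were 27.7% of all tested genes. All 6, and the untested Nrp2, were higher in 3 of 3 numbers, as were 38.1% of all tested genes. Over all tested genes of day 3 the median was 0.16 on the log2 scale as deposited, -0.01 once rescaled by the median of ratios and -0.07 by quantiles. Relative to 0.16, Pgf, Kdr, Vegfb and Nrp1 still lay higher, and Vegfa (0.25) and Flt1 (0.29) lay only slightly above it. On day 7 the median of all genes was 0.06.

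**Figure D3:**
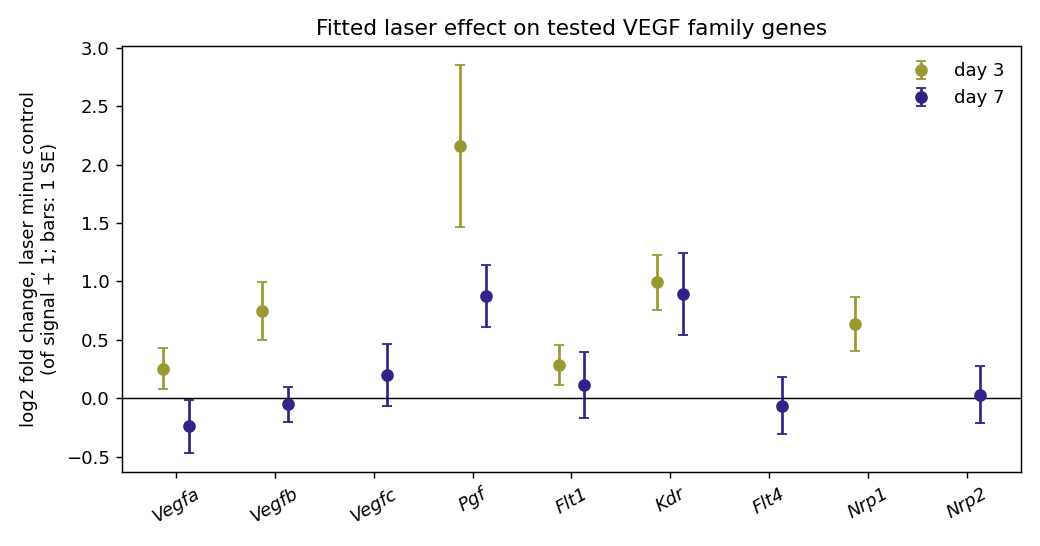
Fitted log2 fold change, lasered minus control retina, of the VEGF family genes tested on day 3 (olive) and day 7 (blue), of log2(signal + 1), with bars of 1 SE from limma. Genes with a mean signal under 1 on a day have no point for it. Kdr is at 0.99 on day 3 and 0.89 on day 7, Pgf at 2.16 and 0.88, and Vegfa at 0.25 and -0.24.

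Whether the laser effect differed between the days was tested as the interaction of day and laser over the 12 libraries, for 17611 genes. None passed by limma (0% called, 9.39% with an unadjusted p under 0.05), and no member passed either. For Kdr the effect on day 7 minus that on day 3 was -0.10 (SE 0.46, adjusted p = 0.992), a difference whose sign changed under 6 of 21 alternative settings. Vegfb had -0.80 (SE 0.31, unadjusted p = 0.0238, adjusted p = 0.467), Vegfa -0.50 (SE 0.29, unadjusted p = 0.119, adjusted p = 0.660) and Pgf -1.29 (SE 0.80, adjusted p = 0.683). With the replicate block Vegfa had an unadjusted p of 0.0243 and an adjusted p of 0.369. The remaining members, Vegfc, Flt1, Flt4, Nrp1 and Nrp2, lay between -0.55 and 0.16.

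The receptors are best known from endothelial cells, but which cells of these bulk retinas made them was not tested. They were also set against 14 endothelial markers that hold no member of the family (among them Pecam1, Cldn5, Tek and Tie1). On day 3 the summed signal of these markers was 31.2 to 37.9 in controls and 83.9, 50.3 and 42.7 in lasered retinas 1, 2 and 3, the same order as Kdr. Most of these sums came from Ly6c1 (mean 12.9 in controls, 28.1 in lasered retinas) and Esam (13.7 and 15.45). Pecam1 differed little (1.79 and 2.06). Of the 7 markers tested that day 0 passed by limma (2 at an unadjusted p under 0.05) and 7 lay above 0, with a median log2 fold change of 0.46. Emcn (0.711 in controls, 1.34 in lasered retinas) entered that test only through its lasered values, which bears on this count and median. Of all genes tested on day 3, 23% had such a p and 68.2% lay above 0, and on day 7 61.5% lay above 0. On day 7 the sums were 171, 132 and 93.4 in controls and 112, 87.8 and 122 in lasered retinas, and 10 of 11 tested markers lay below 0 (median -0.35; 0 passed by limma, 0 also at an unadjusted p under 0.05). Kdr and the endothelial markers thus lay on the same side of 0 on day 3 and on opposite sides on day 7.

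Within each library log2(signal + 1) of Kdr minus the mean log2(signal + 1) of the markers was taken. On day 3 only 7 of the 14 markers had a mean signal of at least 1, so the added 1 compresses the others. On day 3 this was 1.53, 1.5 and 1.51 in controls and 2.31, 2.14 and 1.99 in lasered retinas, a difference of 0.64 with no overlap, which was 0.46 with a pseudocount of 0.1. On day 7 it was 1.89, 3.06 and 2.97 in controls and 3.29, 4.59 and 3.58 in lasered retinas, a difference of 1.18 and again without overlap. Both gave p = 0.1 in a 2-sided exact permutation test, the smallest that 3 against 3 can give (adjusted p = 0.3 over 6 tests of 3 receptors on 2 days). Flt1 differed by -0.07 on day 3 (exact p = 0.6) and 0.40 on day 7 (exact p = 0.5). For Flt4 the differences were -0.34 (exact p = 0.2) and 0.22 (exact p = 0.4), with Flt4 on day 3 near the limit of detection. The part of vessel content in the Kdr values was not tested beyond this, and the part of glia or neurons in them was not tested. The difference is therefore not one per endothelial cell.

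**Figure D4:**
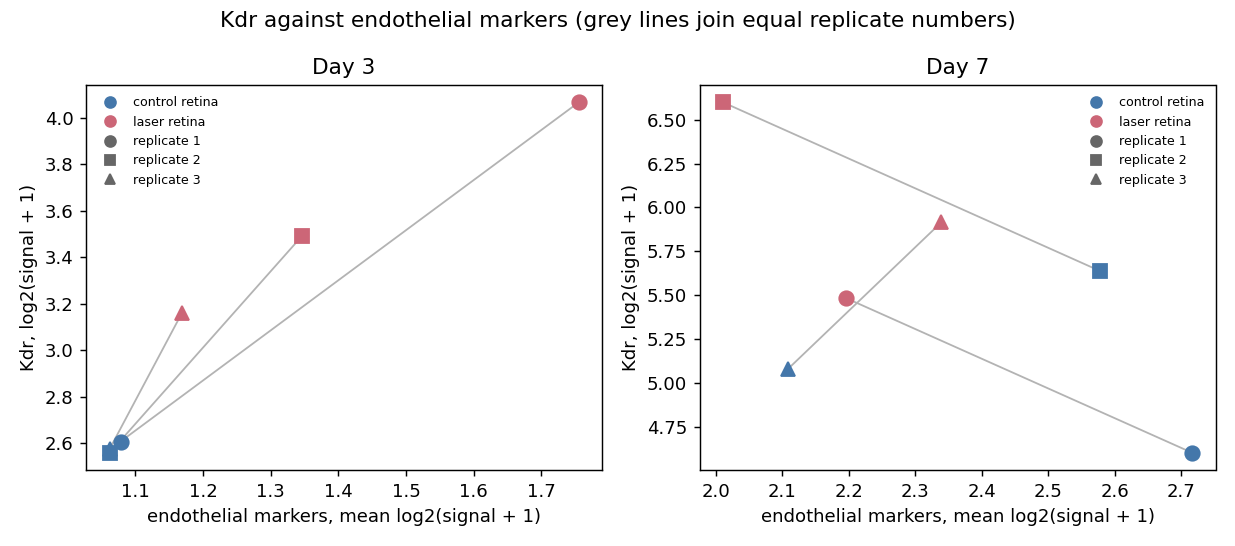
Kdr signal (y axis, log2 of signal + 1) against the mean of 14 endothelial markers on the same scale (x axis) in each library, day 3 on the left and day 7 on the right. Each point is 1 library, blue for control and red for lasered retina, and grey lines join equal replicate numbers. From control to lasered retina Kdr goes up along all 6 lines, while the endothelial mean goes up along all 3 lines of day 3 and along 1 of day 7.

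The order of the members by signal per exon length differed between the tables. In day 3 controls it ran from Kdr (4.98 ± 0.102, SD, n = 3) through Vegfb (3.17 ± 0.729), Vegfa (2.23 ± 0.210), Flt1 (1.80 ± 0.279), Nrp1 (1.68 ± 0.529) and Pgf (1.13 ± 0.114) to Nrp2 (0.597 ± 0.0778), Vegfc (0.205 ± 0.135) and Flt4 (0.190 ± 0.0820). Among neighbours in that order, Vegfa and Flt1, Flt1 and Nrp1, Nrp1 and Pgf, and Vegfc and Flt4 overlapped between libraries. In day 7 controls it ran from Vegfb (139 ± 16.1, SD, n = 3) through Vegfa (70.2 ± 14.3), Kdr (35.0 ± 12.9), Flt1 (11.3 ± 3.98), Nrp2 (4.62 ± 0.902), Flt4 (3.27 ± 0.559), Vegfc (1.79 ± 0.583) and Pgf (1.31 ± 0.200) to Nrp1 (0.294 ± 0.138). Only Vegfc and Pgf overlapped among these neighbours.

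These control retinas had no laser on either day, yet Vegfa was 31.5 times and Vegfb 43.8 times as high in the day 7 table, and Nrp1 was 0.175 times as high. The gap moved with base composition. Over 12230 genes the median log2 ratio of day 7 to day 3 controls was -2.01 for transcripts with under 40% G and C and 3.92 for those with 60% or more, and across genes, which are not independent replicates, the Spearman correlation between GC content and the ratio was 0.581. Nrp1 has 41.9% and Vegfb 62.6%. Vegfa (50.9%) lay at a log2 ratio of 4.98, above the 1.32 of genes with 50% to 55%, and Pgf (56.3%) at 0.21, below the 2.45 of its range. Day and table cannot be told apart here, and no level is compared between the days.

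**Figure D5:**
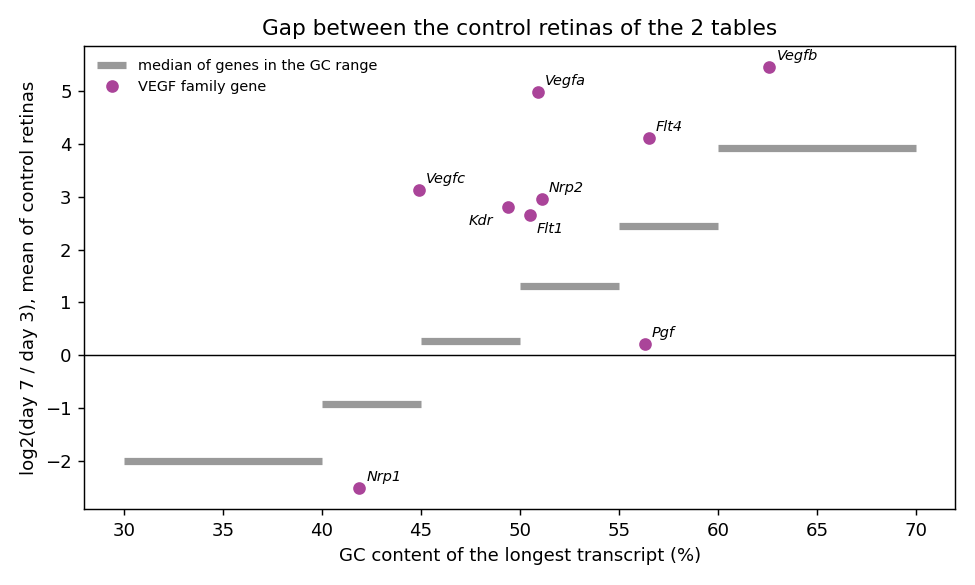
Log2 ratio of the mean signal of day 7 controls to that of day 3 controls (y axis) against the GC content of the longest transcript in percent (x axis). Purple points are the 9 VEGF family genes and grey bars are the medians of all genes in each range of GC content, which climb from -2.01 to 3.92. Nrp1, with 41.9% G and C, is the lowest member and Vegfb, with 62.6%, the highest.

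Other parts of the pathway were described by lists chosen for this purpose. Among 20 modulators of VEGF receptors (other ligands, adhesion partners, semaphorins and plexins) 10 were tested on day 3 and 12 on day 7, and 0 passed by limma on either day (2 and 0 at an unadjusted p under 0.05, which on day 3 was near the 23% of all tested genes). On day 3 9 of 10 lay above 0 (68.2% of all tested genes), with a median log2 fold change of 0.48 against 0.16 for all genes. Gpc1 (0.847 in controls, 1.56 in lasered retinas) and Dcn (0.41 and 2.415) entered that test only through their lasered values. This bears on the count and the median. The smallest p-values were those of Cav1, the coat protein of caveolae (0.76, adjusted p = 0.190 by limma), Cd47, a thrombospondin receptor (0.85, adjusted p = 0.204), and Plxna2, a semaphorin receptor (0.31, adjusted p = 0.308). On day 7 8 of 12 lay above 0 (61.5% of all tested genes; median 0.29), led by Plxnd1, the receptor of semaphorin 3E (0.55, adjusted p = 0.9998). Vegfd, the other ligand of FLT4, was too low to test on day 3, at 0.173 ± 0.138 in controls and 0.0730 ± 0.0101 in lasered retinas (SD, n = 3).

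Of 36 genes that carry the signal inside the cell, 29 were tested on day 3 and 33 on day 7, and 0 passed by limma (9 and 0 at an unadjusted p under 0.05, against 23% and 3.94% of all tested genes). On day 3 26 lay above 0 (68.2% of all tested genes; median 0.34), with the smallest p-values for the kinases Mapk3 (0.75, adjusted p = 0.0946 by limma), Akt2 (0.55, adjusted p = 0.125) and Akt1 (0.65, adjusted p = 0.13). Src (0.66 in controls, 1.40 in lasered retinas) and Mapkapk2 (0.585 and 1.55) entered the day 3 test only through their lasered values, which bears on these counts. On day 7 28 of 33 lay above 0 (61.5% of all tested genes), with a median of 0.11 against 0.06 for all genes, and Mapk14 led with 0.22 (adjusted p = 0.9998).

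Genes that VEGF is known to induce in endothelium numbered 18. On day 3 9 were tested, 0 passed by limma and 8 lay above 0 (68.2% of all tested genes), with a median of 0.87. An unadjusted p under 0.05 was reached by 7 of the 9 (23% of all tested genes). Icam1 (0.241 in controls, 2.34 in lasered retinas), Plaur (0.214 and 5.17) and Cd34 (0.797 and 2.02) entered the test only through their lasered values. The list was also chosen with earlier results of these data known, so these counts are a description only. F3, tissue factor, had 9.46 ± 0.783 in controls and 18.4 ± 4.38 in lasered retinas (SD, n = 3; log2 fold change 0.87, adjusted p = 0.0938 by limma). Plvap, the protein of endothelial fenestrae, had 3.66 ± 1.21 and 7.77 ± 0.408 (0.95, adjusted p = 0.0938), and the adhesion molecule Vcam1 4.93 ± 0.244 and 16.4 ± 9.12 (1.43, adjusted p = 0.0950). On day 7 13 were tested, 0 passed (1 at an unadjusted p under 0.05, against 3.94% of all tested genes) and 5 lay above 0 (61.5% of all tested genes, median -0.05). Icam1 again entered the test only through its lasered values. Icam1, which leukocytes bind, had 0.493 ± 0.176 in controls and 2.74 ± 0.40 in lasered retinas (SD, n = 3; 1.33, adjusted p = 0.172), Vcam1 had 0.70 and Apln, the apelin ligand of tip cells, -0.38 (both adjusted p = 0.9998). Icam1 and Vcam1 are also made by glia and by cells under cytokines.

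Hypoxia-inducible factors with their regulators and targets made up 18 genes, and 0 passed by limma. An unadjusted p under 0.05 was reached by 2 on day 3 and 1 on day 7 (23% and 3.94% of all tested genes). On day 3 12 of 16 tested lay above 0, near the 68.2% of all tested genes (median 0.30), with Ndrg1 (0.52, adjusted p = 0.122 by limma), Ankrd37 (0.49, adjusted p = 0.145) and Vhl, which marks the factors for breakdown (0.31, adjusted p = 0.229), at the smallest p-values. Car9 (0.11 in controls, 2.40 in lasered retinas) entered that test only through its lasered values. On day 7 10 of 17 lay above 0, near the 61.5% of all tested genes, with a median of 0.01, and the smallest p was that of the glycolytic enzyme Hk2, at -0.41 (unadjusted p = 0.0333, adjusted p = 0.9998).

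Markers of other cells moved with the lasered group. Of all tested genes 24 of 16786 rose on day 3 and 37 of 15592 on day 7. Of 13 tested myeloid markers 1 rose on day 3, C1qb, a subunit of complement C1q made by microglia and macrophages (log2 fold change 2.82, SE 0.29, adjusted p = 0.0278 by limma), and 12 lay above 0 (68.2% of all tested genes), with a median of 1.92. Ccr2, Ms4a7, Lgals3, Adgre1, Cx3cr1 and C1qa entered that test only through their lasered values (control means of 0, 0.133, 0.586, 0.604, 0.967 and 0.985), which bears on this count and median. On day 7 6 of 11 rose, Lyz2 (3.92), C1qb (1.98), C1qc (1.90), C1qa (1.90), Cd68 (1.62) and Csf1r (1.29), and the sums were 102 to 125 in controls and 437 to 517 in lasered retinas. Aif1 (0.817 in controls, 4.37 in lasered retinas) and Adgre1 (0.324 and 3.24), not among these risers, entered the day 7 test only through their lasered values. Gfap, the filament of astrocytes and reactive Müller glia, rose on both days (4.45, adjusted p = 0.0450, and 2.40, adjusted p = 0.0419), the only riser of 12 glial markers tested each day, while the sum of these markers on day 7 was 6894 to 7640 in controls and 9801 to 11260 in lasered retinas. The day 3 calls of C1qb and Gfap were lost with the replicate block (adjusted p = 0.15 for both). Among 5 lymphatic endothelial markers Pdpn rose on day 7, from 127 ± 4.81 to 243 ± 14.2 (SD, n = 3; 0.94, adjusted p = 0.0372). Pdpn is also made outside lymphatic vessels, and Prox1 (0.30) and Lyve1 (-0.18) did not pass (both adjusted p = 0.9998).

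Of 3 tested pericyte and smooth muscle markers on day 3 and 6 on day 7, of 10 and 8 markers of pigment epithelium and of 14 and 15 markers of inner retinal neurons, 0 passed by limma (1 and 1, 1 and 1, and 2 and 0 at an unadjusted p under 0.05, against 23% and 3.94% of all tested genes). Below 0 on day 3 lay 9 of 10 pigment epithelium markers (median -0.85) and 12 of 13 rod and cone markers (median -0.52). Of all genes tested that day 68.2% lay above 0. On day 7 4 of 8 and 8 of 13 lay below 0, and 0 rod and cone markers passed on either day. The pigment epithelium sums on day 3 were 374 to 595 in controls and 66.0, 229 and 744 in lasered retinas 1, 2 and 3. Lasered retina 1 was, among the day 3 libraries, the one with the highest Pgf, Kdr, Nrp1, Nrp2, Flt1 and Vegfb, the highest myeloid, neutrophil and endothelial sums and the lowest pigment epithelium sum and photoreceptor mean. The part of these cells in the values of the family was not tested.

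As a description, the members were correlated over the 12 libraries after the mean of the controls of the same day was taken from each log2 value, so that the points share the contrast of laser and control. The pair most alike was Flt1 and Nrp2 (Pearson r = 0.909), followed by Vegfa and Nrp2 (0.820), Nrp1 and Nrp2 (0.816), Pgf and Nrp1 (0.805), Kdr and Nrp2 (0.775) and Flt1 and Kdr (0.764). Flt4 had no correlation above 0.156 with any member. Among the 5804 protein-coding genes with a mean signal of at least 5 in both days, the 3 most like Pgf were Clic1 (0.991), Sec61a1 (0.982) and Ifi35 (0.981). Those most like Kdr were Arl6 (0.956), Me1 (0.951) and Naa35 (0.95), and those most like Vegfa were Gm12355 (0.922), Lsm5 (0.893) and Ptma (0.860). Pgf of lasered retina 1 of day 3 is far from its other values, and the weight of that library in the correlations with Pgf was not tested.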

How the data were processed

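Poly(A) RNA of 12 retina libraries was sequenced, with a directional kit per the labels' protocols. Per the submitters' processing notes the mm10 build, edgeR 3.28.0 and STAR 2.7.0 were used, with no role stated. Not given in the sources used here are how reads were counted, whether by strand, and on which annotation. The deposited tables hold a signal per gene that the authors named TPM. Column sums of 953049 to 1045986 make it signal rather than strict TPM, which the tests had assumed, and the same tests were kept. No column lacked a sample (0).

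Value times union exon length in GENCODE M21 (53681 of 54367 genes with the same coordinates) gave whole reads once a factor of 6 values cycling along the table was removed (0.955 to 1.04 on day 3, 0.962 to 1.05 on day 7; up to 0.05 log2 between groups). Of values under 20 reads, 99.75% to 99.84% per library came out whole within 0.05. Such reads cover counting error only. Limits of detection are the signal of 3 reads.

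Within each day, limma 3.58.1 in R 4.3.3 (lmFit, eBayes with trend, 2-sided) was fitted to log2(signal + 1) of all genes with a mean of at least 1, with Benjamini-Hochberg adjustment and a threshold of 0.05, and checked on simulated data. The difference between days was the interaction over 12 libraries. Receptors against endothelial markers were compared by exact permutation. Sequences, reads and plots were handled in Python 3.11.15 with NumPy 2.4.6, pandas 2.3.3 and matplotlib 3.10.9.

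The design text makes the left eye the control of its own lasered right eye. On day 7 the deviations of same-numbered libraries from their group means had correlations of 0.485, 0.559 and 0.128, each above 0.1, so the blocked value is given where it changes a call. Day 3 did not meet this. No 2 libraries held identical values.

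The members and the 14 lists (201 entries, 1 gene, Prkca, in 2 of them) were chosen with earlier results of these data known. Named were all members, the genes of each list past the threshold or up to 3 with the smallest p, and the 3 genes most like Vegfa, Pgf and Kdr; lists with 0 calls that are given by counts and sums are not named gene by gene, and some genes that this rule names are left unreported here. Alternatives were the pseudocount (0.1), no filter, other scalings, library weights, a joint fit, the replicate block, leaving out each library and, added after seeing the data, the cyclic factor undone, GC trends removed (loess span 0.5), voom and combinations with the block.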

Additional observations from a re-analysis of the deposited data

How the results depend on the processing

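With 3 libraries a group, 1 library can decide a count of calls. On day 3, 25 genes passed. The count was 0 with no filter, 13 and 12 after rescaling by the median of ratios and by quantiles, 369 with library weights, 1016 in the joint fit, 15 with GC trends removed and 13 with voom, and 0 to 315 when each library was left out in turn (315 without lasered retina 1, 1 without lasered retina 3, 0 without control 1, 2 or 3). With the replicate block it was 0, with GC trends also removed 0, with no filter 0, with the cyclic factor undone 2, with either rescaling or pseudocount 0.1 1 each, and 15, 0 and 0 without number 1, 2 and 3. Equal numbers of day 3 correlated by 0.041, 0.016 and 0.077, each library best with its own number, which is a hint from the data and not the design. On day 7, 38 genes passed: 13 with no filter, 114 with library weights, 22 in the joint fit, 59 with GC trends removed, 18 with voom, and 0 to 41 when each library was left out (0 without control 3 or lasered retina 3, 6 without control 2, 9 without control 1, 11 without lasered retina 1). The replicate block gave 53, with GC trends removed 62, with no filter 6, and without number 1, 2 and 3 it gave 76, 21 and 12. For the difference between days 0 genes passed: 2 with pseudocount 0.1, 28 with no filter, 1119 with library weights, and 0 to 5 when each library was left out. The cause of these shifts was not tested.

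Members called went from 0 to 1 (Pgf) on day 3 in the joint fit and from 0 to 1 across the libraries left out, and from 0 to 1 (Kdr) on day 7 with the replicate block, alone or with GC trends removed. The block changed no other call of a member. The Kdr difference from the endothelial markers on day 3 was 0.46 with pseudocount 0.1, against 0.64. Signs turned only for values near 0. On day 7 Vegfb had 0.14 with GC trends removed (also 0.14 with the replicate block), 0.065 with library weights, 8.407e-05 with the block without number 2, and -0.11 to 0.057 over libraries left out. Flt4 had 0.27 with library weights, 0.15 with the block without number 2, and -0.18 to 0.060 over libraries left out. Nrp2 had -0.11 with library weights, -0.042 with the median of ratios and -0.069 with quantiles (with the replicate block -0.042 and -0.069), -0.013 with the block without number 3, and -0.084 to 0.16 over libraries left out. Flt1 had -0.050 with the block without number 3 and -0.023 to 0.37 over libraries left out. For the difference between days Kdr had 0.0043 with library weights, 0.012 with the median of ratios, 0.083 with quantiles and -0.40 to 0.17 over libraries left out. Flt4 had 0.065 with library weights, 0.073 with GC trends removed (0.073 with the block) and -0.20 to 0.040, and Flt1 0.15 with library weights and -0.31 to 0.080. Over the 25 settings the log2 fold change of Pgf ranged from 1.23 to 2.80 on day 3 and from 0.70 to 1.29 on day 7, that of Kdr on day 7 from 0.57 to 1.16, and that of Vegfa from 0.03 to 0.36 on day 3 and from -0.59 to -0.04 on day 7. Depth limits Vegfc and Flt4 on day 3, with at most 7 and 16 reads in a library.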
